A study of Mus musculus with 10 samples.

Results

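NMDA receptor subunit transcripts were described in the hippocampus of Tshr-/- and wild-type mice, over the 6 subunit genes Grin1, Grin2a, Grin2b, Grin2c, Grin2d and Grin3a. The members were taken by gene name alone from a table of 52636 gene records, and all 6 were found and passed the filter on low values. Both genotypes were C57BL/6 mice of 3 months, with 5 libraries of hippocampal RNA each. Tshr-/- mice lack the thyrotropin receptor, through which the pituitary drives the thyroid gland, and the study is titled as one of spatial learning and memory. The labels call the libraries biological replicates without saying whether each is a single mouse, and give neither the deleted part of Tshr nor any thyroid hormone treatment, so that p-values measure the spread between these libraries. Values are FPKM, fragment numbers divided by gene length and by the library's total. For the members this length counts the exons of all annotated transcripts together. Levels of different genes therefore compare only roughly, as far as that length matches the transcripts present.

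NMDA receptors are typically glutamate-gated cation channels. They usually open when glutamate and a co-agonist, glycine or D-serine, are bound and depolarization has expelled the magnesium ion that blocks the pore. Their calcium entry triggers the lasting changes in synaptic strength that hippocampal spatial memory draws on. Each receptor is a tetramer that needs GluN1, the product of Grin1, together with GluN2 subunits (Grin2a to Grin2d) or GluN3 subunits (Grin3a, Grin3b). GluN1 and GluN3 bind the co-agonist and GluN2 binds glutamate. In forebrain neurons GluN2B dominates early in life and GluN2A is added as synapses mature.

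RefSeq promoter entries (GRCm38.p6) were found for 3 of the 6 genes, Grin1, Grin2c and Grin2d, and 250 bases upstream of the start site are shown for Grin1 and Grin2c, the obligatory subunit and the GluN2 gene nearest to Grin2a in level, to place the start of the transcripts measured below. Both lie on the minus strand, at chr2:25319188-25319437 and chr11:115267244-115267493, in no gene record of the table. Capitals mark every match, on either strand, to the letters GGGCGG (GC box) or CACGTG (E-box). The letters GCGGGGGCG (bound by EGR factors) and TGACGTCA (cyclic AMP response element) were searched too and are in neither window.
Grin1: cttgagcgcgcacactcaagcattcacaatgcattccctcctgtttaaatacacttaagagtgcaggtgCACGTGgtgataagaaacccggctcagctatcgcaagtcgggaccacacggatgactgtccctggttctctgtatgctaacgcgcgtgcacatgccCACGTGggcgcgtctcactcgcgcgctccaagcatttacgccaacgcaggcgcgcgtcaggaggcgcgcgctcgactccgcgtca
Grin2c: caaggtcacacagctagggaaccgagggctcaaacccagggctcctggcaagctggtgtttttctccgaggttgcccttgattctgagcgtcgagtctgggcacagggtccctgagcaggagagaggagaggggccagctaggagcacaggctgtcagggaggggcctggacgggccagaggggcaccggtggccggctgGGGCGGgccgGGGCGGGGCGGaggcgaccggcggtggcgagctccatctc
Grin1 holds CACGTG at 2 places and no GGGCGG, and Grin2c holds GGGCGG at 3 places, of which the last 2 overlap by 1 base, and no CACGTG. Of 32841 mouse promoter windows of this length, 6.02% hold CACGTG and 32.8% hold GGGCGG. The window of Grin2d (chr7:45866682-45866931) holds none of the 4 motifs. Unlike those of Grin1 and Grin2c, it lies inside the Grin2d gene record itself, so it is not upstream of the whole measured gene. GC content was 58.8% for Grin1, 68.8% for Grin2c and 54.4% for Grin2d, against a median of 52.4% over all windows. These matches are a description of the letters only.

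The libraries held 23899650 to 33529811 reads rebuilt from FPKM, and each member rested on at least 787 reads in each library, so that counting error was small beside the spread between libraries. Few reads fell on Tshr in either genotype, with 0 to 5 reads per Tshr-/- library and 2 to 12 per wild-type library, and since the deleted part is not stated these reads do not check the labels. Markers of tissue beside the hippocampus differed between libraries. The summed level of 13 thalamus and habenula markers ran from 44.7 to 288 FPKM in Tshr-/- and from 24.8 to 140 FPKM in wild type, with Gbx2 at 0 in 1 library. All 13 were higher in Tshr-/-, with a median log2 difference of 0.61. At an unadjusted limma p below 0.05 stood 1 of them, and 0 after adjustment. The mean log2 level of the 13, relative to all libraries, was highest in 4 libraries. These were Tshr-/- libraries 1 and 2 (1.31 and 2.14) and wild-type libraries 2 and 5 (0.56 and 1.08). In the other 6 it was -0.64 to -0.43 for Tshr-/- and -1.36 to -0.93 for wild type. The summed level of 10 choroid plexus markers was 2603 FPKM in Tshr-/- library 4 and 32.5 to 136 FPKM in the other 9, with Kcne2 at 0 in 1 library. The mean log2 level of the 9 tested markers was 4.09 in Tshr-/- library 4 and -1.70 to 0.47 in the others. A covariate of this level thus mainly marks that library. The 8 markers of meninges and fibroblasts were all higher in Tshr-/-, 4 of them at an unadjusted limma p below 0.05 and 0 after adjustment by limma, with summed levels of 13.6 to 45.8 FPKM against 8.26 to 20.4, a median log2 difference of 0.78 and no marker at 0; their part in the results below was not tested. Of the hippocampal markers, 10 dentate granule neuron genes summed to 101 to 133 FPKM in Tshr-/- and 149 to 200 in wild type, and 8 CA1 pyramidal neuron genes to 125 to 207 and 182 to 252. All 10 dentate genes were lower in Tshr-/-, 8 of them at an unadjusted limma p below 0.05, with a median log2 difference of -0.31. Of the CA1 genes 7 were lower and 1 higher, 4 of the lower at that level, with a median of -0.48. After adjustment by limma, 0 passed in either list. The 9 genes of CA3 and CA2 neurons summed to 161 to 218 FPKM in Tshr-/- and 157 to 209 in wild type, with 5 higher and 4 lower in Tshr-/-. None of these hippocampal markers was at 0 in any library.

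The subunit genes were first ranked by their level, which rests on the gene lengths used. Grin1 stood highest in all 10 libraries with a mean of 51.5 FPKM, and Grin2b followed at 32.3 FPKM, with no overlap between the ranges of this pair. Grin2a at 15.9 FPKM and Grin2c at 14.7 FPKM came next and did not separate, since Grin2a was the higher of the pair in 7 of 10 libraries. Those 7 were all 5 wild-type libraries and Tshr-/- libraries 3 and 4. Grin2d at 5.59 FPKM stood below Grin2c in 10 of 10 libraries. Grin3a, which lowers calcium permeability when built into a receptor, was last at 3.48 FPKM. It lay below Grin2d in 10 of 10 libraries, although the ranges of this pair overlapped between libraries. Grin3b, the remaining subunit gene of the family and known mainly from motor neurons, was near background at 0.137 ± 0.0562 FPKM in Tshr-/- and 0.147 ± 0.0354 in wild type (SD, n = 5), on 5 to 18 reads per library, and did not pass the filter.

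**Figure D1:**
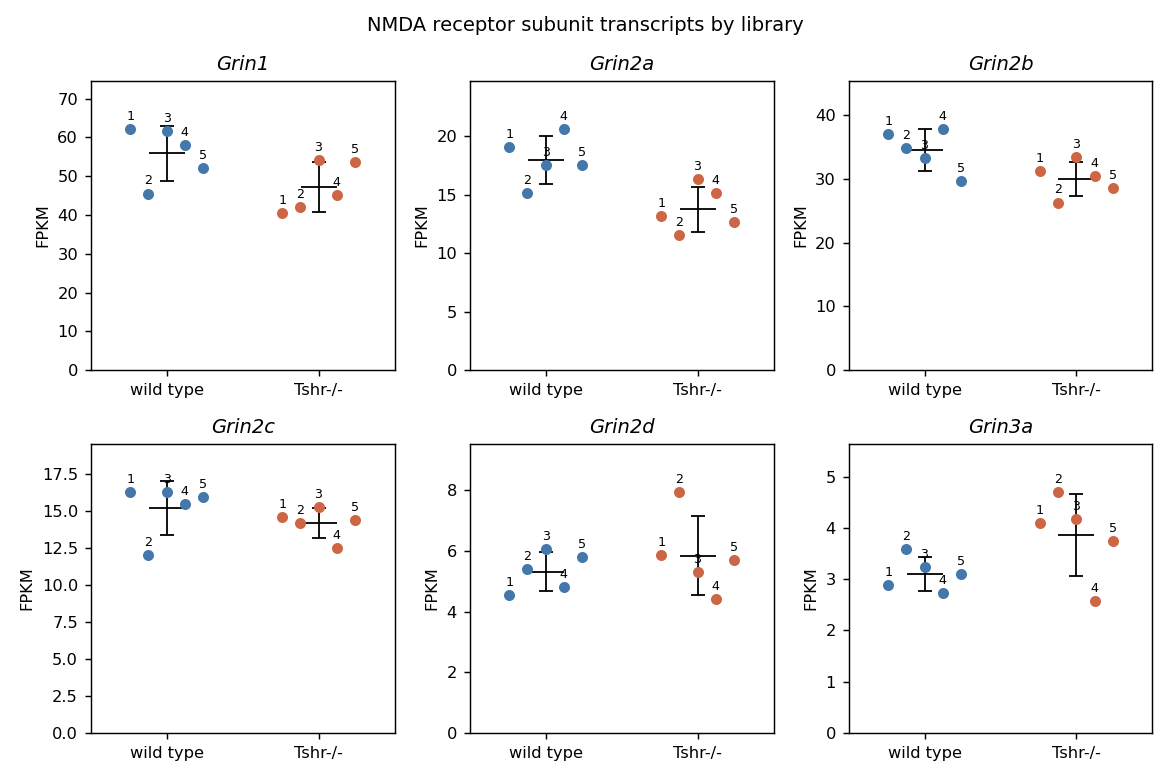
FPKM (vertical axes, each from 0) of the 6 NMDA receptor subunit genes in each wild-type and Tshr-/- library, with points numbered by library and bars for mean ± SD (n = 5). Grin2a averages 13.8 FPKM in Tshr-/- and 18.0 in wild type, and each gene's groups overlap.

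Whether the subunit transcripts differ without Tshr was asked in a model fitted to all 15471 genes with a mean of at least 0.5 FPKM. On the log2 scale the difference of Grin2a was the largest of the 6, with 13.8 ± 1.94 FPKM in Tshr-/- against 18.0 ± 2.03 in wild type (SD, n = 5). None of the 6 passed the limma threshold of an adjusted p below 0.05 over all genes, where 0.0129% of tested genes did. Without adjustment, Grin1, Grin2a and Grin2b had limma p below 0.05, all lower in Tshr-/-. That is 3 of 6 members where 8.38% of all tested genes were lower at this level, 4.65% were higher and 13% differed in either direction. Over 23 other fits, the unadjusted limma p was below 0.05 in 11 for Grin1, 23 for Grin2a and 14 for Grin2b. No member's groups were without overlap, as they were for 1.76% of all tested genes with Tshr-/- lower and 0.911% with Tshr-/- higher. The median log2 difference of the 6 was -0.15, against -0.01 over all tested genes, and 4 of the 6 lay lower in Tshr-/-, as did 53.3% of all tested genes. For RNA of a whole tissue, fewer cells of a type and less RNA per cell cannot be told apart.

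Grin1 encodes the subunit that each NMDA receptor needs. It measured 40.6, 42.0, 54.2, 45.2 and 53.6 FPKM in Tshr-/- libraries 1 to 5 and 62.1, 45.5, 61.7, 58.0 and 52.0 FPKM in wild-type libraries 1 to 5. All 5 Tshr-/- libraries lay below the wild-type median and 3 of them below every wild-type library, but the groups overlapped, since libraries 3 and 5 of Tshr-/- exceeded wild-type libraries 2 and 5. The means were 47.1 ± 6.41 and 55.9 ± 7.05 FPKM, a log2 difference of -0.25 ± 0.11 (SE) with a limma p of 0.0475, or 0.378 adjusted over all genes. Tshr-/- libraries 1 and 2 and wild-type library 2, the lowest of their genotypes, are among the 4 libraries high in thalamic markers. With the thalamic marker level as a covariate, which was fitted with the same 10 libraries, the Grin1 difference was -0.15 (limma adjusted p = 0.415). The gene (ENSMUSG00000026959, chromosome 2, 25291181 to 25319187, minus strand, mm10) shares 1307 exonic bases, 13.5% of its exon length, with the antisense gene Grin1os, and the libraries do not mark the strand. Grin1os stood at 3.14 ± 0.672 FPKM in Tshr-/- and 3.19 ± 1.22 in wild type.

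Grin2a encodes GluN2A, the subunit of mature synapses that gives fast-closing channels. Its levels in Tshr-/- libraries 1 to 5 were 13.1, 11.5, 16.3, 15.1 and 12.6 FPKM, and in wild-type libraries 1 to 5 they were 19.1, 15.1, 17.5, 20.6 and 17.5 FPKM. Tshr-/- libraries 1, 2 and 5 lay below every wild-type library, while Tshr-/- library 3 lay above wild-type library 2 alone and Tshr-/- library 4 was at nearly the same level as wild-type library 2. The log2 difference was -0.39 ± 0.11 (SE), a change of -23.5% with a 95% interval from -34.9% to -10.1%, and limma gave an unadjusted p of 0.00387 and an adjusted p of 0.197. Of 15471 genes, 302 had a smaller p. The unadjusted p of Grin2a was below 0.05 in each of 23 other fits, with log2 differences from -0.45 to -0.31 and adjusted p from 0.122 to 0.455. With the thalamic covariate the log2 difference was -0.31 (limma adjusted p = 0.187). Markers of dentate granule, CA1 and glutamatergic neurons and of interneurons were also mostly lower in Tshr-/-, and their part was not tested. The gene (ENSMUSG00000059003, chromosome 16, 9567898 to 9995560, minus strand) overlaps no other gene record.

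Grin2b encodes GluN2B, whose channels close slowly and whose tail binds CaMKII. It had 31.2, 26.3, 33.4, 30.4 and 28.6 FPKM in Tshr-/- libraries 1 to 5 and 37.1, 34.9, 33.3, 37.8 and 29.8 FPKM in wild-type libraries 1 to 5. Wild-type library 5 stood lowest of its genotype and below Tshr-/- libraries 1, 3 and 4. The means of 30.0 ± 2.68 and 34.6 ± 3.24 FPKM gave a log2 difference of -0.20 ± 0.08 (SE, limma unadjusted p = 0.0284 and adjusted p = 0.333). The thalamic covariate moved it to -0.15 (limma adjusted p = 0.384) and quantile normalization to -0.13 (0.543). The gene (ENSMUSG00000030209, chromosome 6, 135713233 to 136173511, minus strand) shares at most 143 exonic bases, 0.576% of its exon length, with any 1 neighbouring record.

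Grin2c encodes GluN2C, best known from cerebellar granule cells, thalamus and astrocytes. Its levels were 14.6, 14.2, 15.3, 12.5 and 14.4 FPKM in Tshr-/- libraries 1 to 5 and 16.3, 12.03, 16.3, 15.5 and 16.0 FPKM in wild-type libraries 1 to 5. Wild-type library 2 was the lowest of all 10, below every Tshr-/- library, while the other 4 wild-type libraries lay above all 5 Tshr-/- libraries. The log2 difference was -0.09 ± 0.09 (SE, limma adjusted p = 0.688), with a 95% interval from -0.29 to 0.10. Without wild-type library 2 it was -0.17 with an unadjusted p of 0.0189 and a limma adjusted p of 0.277. When Tshr-/- library 4 was left out it was -0.05, and with the choroid plexus covariate, which mainly marks that library, -0.04. The summed level of 8 astrocyte markers was 411 to 452 FPKM in Tshr-/- and 427 to 485 in wild type. Of these markers 5 were higher and 3 lower in Tshr-/-, with a median log2 difference of 0.04. At an unadjusted limma p below 0.05 stood 2 of the lower ones. The gene (ENSMUSG00000020734) lies on chromosome 11 from 115249169 to 115267243, minus strand.

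Grin2d encodes GluN2D, a slowly closing subunit found in interneurons, thalamus and midbrain. Tshr-/- libraries 1 to 5 had 5.88, 7.95, 5.30, 4.41 and 5.71 FPKM, and wild-type libraries 1 to 5 had 4.54, 5.40, 6.06, 4.82 and 5.79 FPKM. The highest and the lowest values were both from Tshr-/-, in library 2 and library 4. The log2 difference of 0.12 ± 0.14 (SE, limma adjusted p = 0.761, 95% interval -0.19 to 0.42) was 0.00067 without Tshr-/- library 2, the library highest in thalamic markers, and 0.01 with the thalamic covariate. It was 0.21 without Tshr-/- library 4 and 0.18 with the choroid plexus covariate, which mainly marks that library. The summed level of 10 interneuron markers was 418 to 680 FPKM in Tshr-/- and 599 to 679 in wild type. Of these markers 9 were lower and 1 higher in Tshr-/-, with a median log2 difference of -0.17. At an unadjusted limma p below 0.05 stood 3 of the lower ones, and 0 after adjustment. The Grin2d gene (ENSMUSG00000002771, chromosome 7, 45831883 to 45878378, minus strand) shares 9.66% of its exon length with the antisense gene Gm45441, whose reads cannot be told apart there.

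Grin3a encodes GluN3A, a subunit that is most abundant in young brain. It was measured at 4.10, 4.70, 4.18, 2.57 and 3.75 FPKM in Tshr-/- libraries 1 to 5 and at 2.88, 3.59, 3.23, 2.73 and 3.11 FPKM in wild-type libraries 1 to 5. Tshr-/- libraries 1, 2, 3 and 5 stood above every wild-type library, and Tshr-/- library 4 stood below them all. The means were 3.86 ± 0.799 and 3.11 ± 0.331 FPKM, with a log2 difference of 0.28 ± 0.14 (SE, 95% interval -0.03 to 0.60, limma unadjusted p = 0.0756 and adjusted p = 0.430). When Tshr-/- library 4 was left out, in which choroid plexus markers are high, the difference was 0.42 with an unadjusted limma p of 0.00121 and an adjusted p of 0.146. With the choroid plexus marker level as a covariate it was 0.42 (limma adjusted p = 0.263), and with the thalamic covariate 0.20 (0.569). Since the choroid plexus covariate mainly marks Tshr-/- library 4, its fit is not separate from leaving that library out. The gene (ENSMUSG00000039579) lies on chromosome 4 from 49661611 to 49845744, minus strand, and shares no exonic base with its neighbours.

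**Figure D2:**
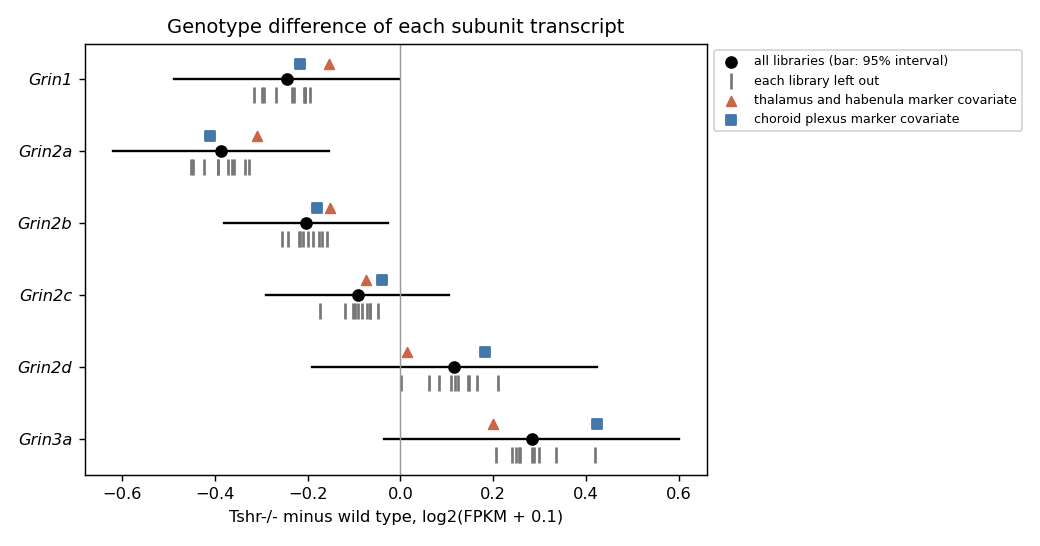
Log2 difference of each subunit gene, Tshr-/- minus wild type (horizontal axis), with its 95% interval in the fit of all libraries (black), the values with each library left out (grey ticks) and the values with a thalamus and habenula or a choroid plexus marker covariate. Grin2a lies between -0.45 and -0.31 in all alternatives, and Grin2d comes down to 0.00067 without 1 library.

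Levels of the members were next set beside the thalamic markers, library by library. Tshr-/- library 2, with the highest thalamic level, had the lowest Grin2a and Grin2b and the highest Grin2d and Grin3a of all 10 libraries. Wild-type library 4, with the lowest thalamic level, had the highest Grin2a and Grin2b. These shared positions were seen after the values were known and their part in the genotype differences was addressed only by the covariate fits above. Within wild type, thalamic markers were high in libraries 2 and 5 while Grin2a was lowest in library 2 and Grin2b in library 5. Not every library followed these positions. Tshr-/- library 1, with a thalamic level of 1.31, had 31.2 FPKM of Grin2b. Tshr-/- libraries 4 and 5, at -0.43 and -0.64, had less, at 30.4 and 28.6 FPKM. Wild-type library 3, at -0.93, had the highest Grin2d of its genotype, 6.06 FPKM.

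**Figure D3:**
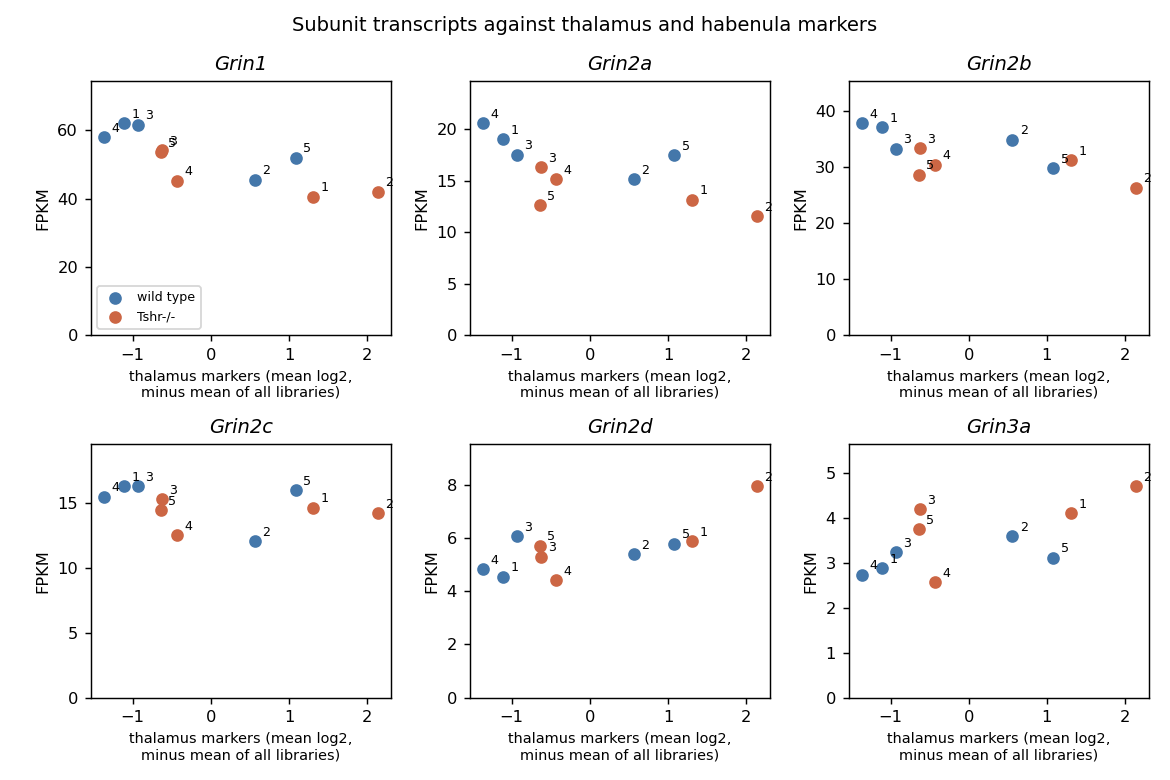
FPKM of each subunit gene (vertical axes from 0) against the mean log2 level of 13 thalamus and habenula markers relative to all libraries (horizontal axes), with points numbered by library. Tshr-/- library 2 lies at the far right at 2.14, with 11.5 FPKM of Grin2a and 7.95 FPKM of Grin2d.

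The make-up of the GluN2 transcripts was described by shares of their summed FPKM, with no test because the ratios were chosen with earlier results known. The shares and ratios also rest on the gene lengths used. Summed GluN2 was 63.8 ± 4.03 FPKM in Tshr-/- and 73.1 ± 4.89 in wild type (SD, n = 5), with ranges of 60.0 to 70.3 and 67.4 to 78.7 FPKM that overlapped. Grin2b held the largest share in each library, with means of 47.0% ± 1.90 in Tshr-/- and 47.3% ± 3.22 in wild type. The Grin2a share was 21.5% ± 2.11 and 24.5% ± 1.42, and Tshr-/- libraries 1, 2 and 5, at 20.3%, 19.2% and 20.6%, lay below the lowest wild-type library at 22.4%. Grin2c held 22.3% ± 1.48 and 20.8% ± 2.09 and Grin2d held 9.24% ± 2.44 and 7.34% ± 1.23 in Tshr-/- and wild type. The Grin2d share reached 13.3% in Tshr-/- library 2.

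The Grin2a to Grin2b ratio, which climbs as forebrain synapses mature, was 0.421, 0.438, 0.489, 0.497 and 0.442 in Tshr-/- libraries 1 to 5. In wild-type libraries 1 to 5 it was 0.513, 0.434, 0.527, 0.544 and 0.588. Wild-type libraries 1, 3, 4 and 5 lay above all Tshr-/- libraries and wild-type library 2 lay within their range. The means were 0.457 ± 0.0335 and 0.521 ± 0.0565, a mean log2 difference of -0.18 that ranged from -0.25 to -0.14 when each library was left out. Summed GluN2 over Grin1 averaged 1.37 ± 0.167 without Tshr and 1.32 ± 0.113 in wild type, 0.05 apart on the log2 scale and within the spread between libraries. Without Tshr-/- library 1 this difference was -0.01 and without Tshr-/- library 5 it was 0.11, the ends of its range with each library left out. Grin3a over Grin1 was 0.0833 ± 0.0226 and 0.0569 ± 0.0134, highest in Tshr-/- libraries 1 and 2 at 0.101 and 0.112.

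**Figure D4:**
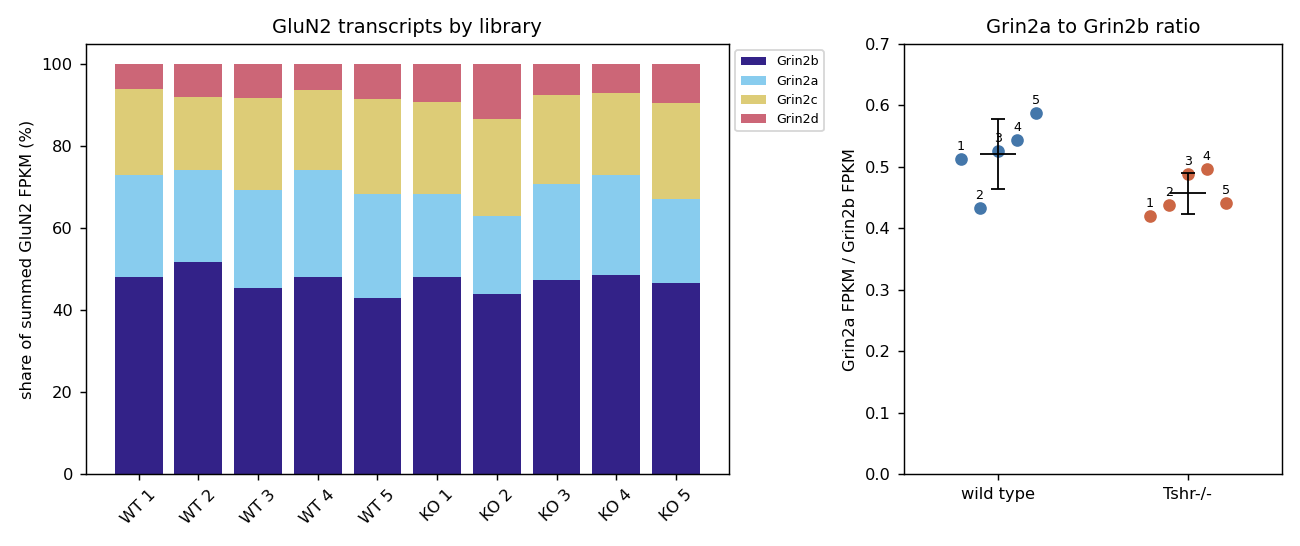
Left, share (%) of the summed FPKM of Grin2a to Grin2d held by each gene in the wild-type (WT) and Tshr-/- (KO) libraries. Right, Grin2a FPKM over Grin2b FPKM by library, with mean ± SD (n = 5), at 0.521 in wild type and 0.457 in Tshr-/-.

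The other genes of the NMDA receptor pathway were taken from a list of 52 genes, all of which were measured, as 53 records because Dlg2 has 2. Of the 53, limma called 0 over all genes and limma voom also called 0, while 11 had an unadjusted p below 0.05 (9 lower and 2 higher in Tshr-/-), or 20.8% where 13% of all tested genes did. In all, 39 lay lower and 14 higher, with a median log2 difference of -0.06. Lower values thus made up 73.6% of the list and 53.3% of all tested genes. Markers of dentate granule, CA1 and glutamatergic neurons and of interneurons were also mostly lower in Tshr-/-. Their part in the lower pathway values, and that of the thalamic markers, was not tested. Targets and partners on the calcium side lay lower for 9 of 10 genes, with a median of -0.19, and kinases and phosphatases for 12 of 13, with a median of -0.10.

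Among the calcium targets, Rasgrf1, a calmodulin-dependent activator of Ras that binds GluN2B, had the smallest p of the list. It stood at 38.5 ± 3.13 FPKM in Tshr-/- and 47.3 ± 3.53 in wild type, or -0.30 ± 0.07 (SE) on the log2 scale (limma adjusted p = 0.162). Its 5 Tshr-/- libraries lay below all wild-type libraries, as did those of 1.76% of all tested genes. Calm3, 1 of the calmodulin genes, had 1049 ± 104 against 1248 ± 95.5 FPKM (limma adjusted p = 0.266). Camk2a, the kinase subunit that calcium entering through NMDA receptors activates, had 547 ± 99.2 against 681 ± 88.4 FPKM (log2 -0.33, limma adjusted p = 0.346), and its partner Camk2b had 135 ± 22.5 against 163 ± 19.4 (0.359). Camk2a is also a marker of glutamatergic neurons. Of 5 such markers, Camk2a included, 4 were lower and 1 higher in Tshr-/-, with a median log2 difference of -0.31. At an unadjusted limma p below 0.05 stood 2 of the lower ones, and 0 after adjustment.

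Of the enzymes that set receptor phosphorylation, Ppp3ca, the catalytic subunit of calcineurin, had 195 ± 28.7 FPKM in Tshr-/- and 253 ± 24.6 in wild type (log2 -0.38, limma adjusted p = 0.211). Src, a tyrosine kinase that raises NMDA receptor current, had 45.7 ± 4.37 against 52.7 ± 5.71 FPKM (limma adjusted p = 0.355). Dlg4, which encodes the anchoring scaffold PSD-95, had 169 ± 29.7 against 200.3 ± 26.5 FPKM (0.419). Lower values were counted for 5 of the 6 records of anchoring scaffolds, and none had an unadjusted p below 0.05.

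Genes that supply or remove the co-agonist were lower for 4 and higher for 6 of 10, with a median log2 difference of 0.05. Srr, the serine racemase that makes D-serine, had 10.9 ± 0.799 FPKM in Tshr-/- and 11.4 ± 0.686 in wild type (limma adjusted p = 0.669). Of the 3 glutamate transporters, neuronal Slc1a1 had 13.9 ± 1.25 against 15.8 ± 0.741 FPKM (log2 -0.20, limma adjusted p = 0.271). Cask, a member of the complex that carries GluN2B vesicles along dendrites, had 5.88 ± 0.384 against 5.25 ± 0.420 FPKM (log2 0.16, limma adjusted p = 0.362). It was higher in Tshr-/-, with 4 of 5 Tshr-/- libraries above every wild-type library.

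**Figure D5:**
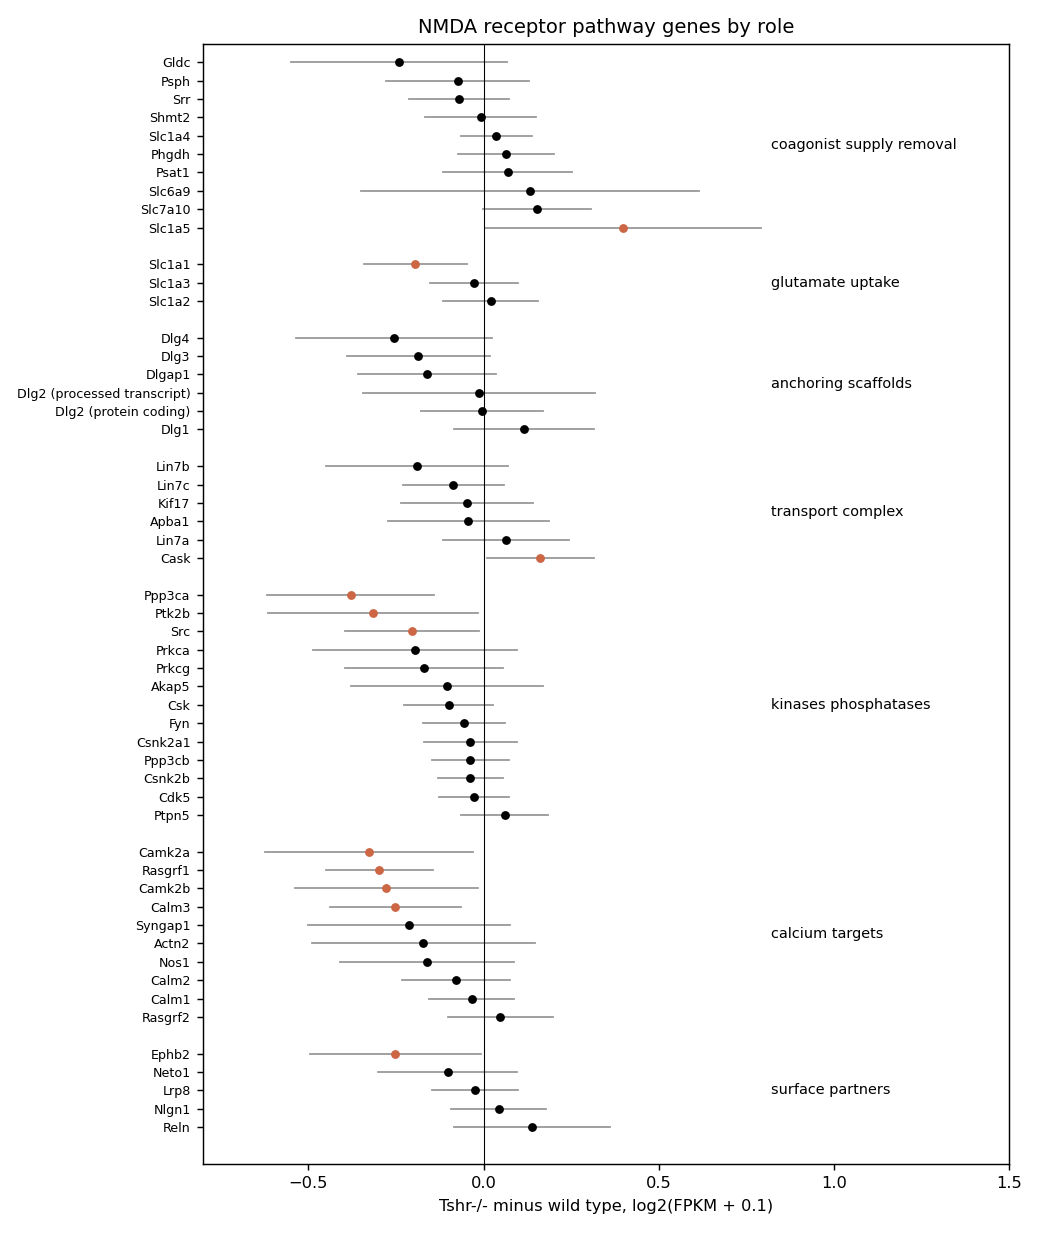
Log2 difference, Tshr-/- minus wild type (horizontal axis), of 53 gene records of the NMDA receptor pathway with 95% intervals, grouped by role, with orange points where the unadjusted limma p is below 0.05. Of the 11 orange points, 9 lie below 0.

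Likeness to each member was measured by Pearson's r of log2(FPKM + 0.1) over the same 10 libraries, which share depth and neighbouring tissue, and is given as a description. The genes most like Grin1 were Mkl1 (r = 0.987), H1fx (0.983) and Kdm4b (0.983), and the least like was Ddx3x (-0.967). For Grin2a they were Arpc2 (r = 0.980), Slc7a14 (0.978) and Nmt1 (0.974), with Zcchc12 at the other end (-0.955). For Grin2b they were Wwc2 (r = 0.956), Cnksr2 (0.954) and Rwdd3 (0.949), with Mrpl33 at -0.933.

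Grin2c was most like the microRNA gene Gm44347 (r = 0.913), Wdr4 (0.881) and Sars2 (0.878), and least like Galnt4 (-0.918), the weakest match of the 6. Grin2d was most like Wwox (r = 0.932), D330023K18Rik (0.930) and Nxph1 (0.928), and least like the pseudogene Gm5881 (-0.933). Grin3a was most like Klhl1 (r = 0.940), Pcdhgc4 (0.933) and Dpysl3 (0.926), and least like Hist1h2bc (-0.923). Among the members themselves, Grin2a and Grin2b had an r of 0.826, Grin1 and Grin2a 0.758, Grin1 and Grin2b 0.583, and Grin2d and Grin3a 0.786. Grin2a and Grin3a had an r of -0.729, Grin2b and Grin2d -0.687, and Grin1 and Grin2d -0.397.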

How the data were processed

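RNA was sequenced from 5 Tshr-/- and 5 wild-type hippocampus libraries whose kit keeps no strand information, per the labels' protocols. Per the submitters' processing notes, the tools were HISAT2 2.0.5 (aligner) and featureCounts 1.5.0-p3 (read counter) and the build mm10. The authors deposited FPKM values with the length and position of each gene. The library sizes behind these values are not given in the sources used here. Multiplied by gene length, 100% of the values above 0 came out as whole multiples of 1 step per library (tolerance 0.01 read), and these multiples were used as reads.

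Differences are Tshr-/- minus wild type on log2(FPKM + 0.1), which understates low genes, from limma 3.58.1 in R 4.3.3 with a mean-variance trend. It was fitted to the 15471 genes with mean FPKM of at least 0.5, with Benjamini-Hochberg adjustment over all of them. The fit was also run on simulated reads, with changes as small as that of Grin2a among those simulated. Its pass mark was set only for changes larger than those of the members. How often the smaller changes were called is not reported here. Whether differences as small as those of the members could be called is therefore left unstated. Alternatives were pseudocounts of 1 and 0.01, other filters, scalings and variance models, voom on the rebuilt reads with the library sizes implied by the FPKM, a replicate block, marker covariates and each library left out. The members, pathway and marker lists were chosen with earlier results of these data known. Named genes are the members, Grin3b, Tshr, the pathway genes with the 8 smallest p, Dlg4, Camk2a and Srr, and for each member the 3 genes most like it and the 1 least like it. Grin1os, Gm45441, Gbx2 and Kcne2 were named after their values were seen. Coordinates and lengths of the members were the same in GENCODE vM21, from which exon overlaps came.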

Additional observations from a re-analysis of the deposited data

Results flagged for a closer look

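Grin2c in wild-type library 2, at 12.03 FPKM, lay apart from the other 4 wild-type libraries. Its gap to the nearest of them was 0.810 of the whole range of the genotype, above the limit of 0.710 for 5 libraries. Of the 16 sets of 5 values examined (6 genes and 2 ratios in each genotype), it was the only one past the limit, and chance alone marks about 1 set in 20. The log2 difference of Grin2c was -0.09 with this library and -0.17 without it.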

How the results depend on the processing

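None of the 6 members was called by limma in any of the 23 alternatives, and each kept its direction in all of them. Log2 differences ran from -0.32 to -0.15 for Grin1, -0.45 to -0.31 for Grin2a, -0.26 to -0.13 for Grin2b, -0.17 to -0.04 for Grin2c, 0.00067 to 0.21 for Grin2d and 0.20 to 0.42 for Grin3a. No pathway gene was called in any alternative. The number of genes called over the whole table, 2 as reported, was 14 with a pseudocount of 0.01, 13 with mean FPKM of at least 1 and with median-ratio scaling, 17 among protein-coding genes, 8 with the thalamic covariate, 4 with no filter, with quantile normalization and with the choroid plexus covariate, and 1 with no variance trend. It ranged from 0 to 9 when each library was left out, with 1343 to 2330 genes at an unadjusted limma p below 0.05; it was 0 without wild-type library 2, 3 or 4 or Tshr-/- library 2, 1 without Tshr-/- library 1 or wild-type library 5, 4 without Tshr-/- library 3 and 9 without Tshr-/- library 5. The cause was not tested. A replicate block gave 3 such genes, and no member was called (Grin2a adjusted p = 0.166). Libraries of the same number correlated in their deviations from the group means at -0.0651 to 0.296, and 2 of 5 Tshr-/- libraries correlated best with their own number, so the numbers were not taken as pairs. With 5 libraries a genotype, the 95% intervals of Grin2c, Grin2d and Grin3a include both higher and lower levels in Tshr-/-.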
